A study of Sus scrofa with 12 samples.

Results

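The span from 35 to 90 days of gestation (dg) was examined in the polyadenylated RNA of pig fetal longissimus muscle, the long muscle of the back. The 90 dg libraries of both maternal diets, NE90 and RE90, were set against the 35 dg libraries NE35 and RE35, with diet as a covariate. The 55 dg libraries NE55 and RE55 stayed in the fit, where they shared the estimate of the spread. Genes were kept that had a level of at least 1 CPM, the count scaled to a common library size, in at least 2 of the 6 libraries, which left 12805 of the 19158 gene identifiers. The 4 libraries compared were 4 of the 12 samples of the series, whose 6 small RNA samples were not used here.

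Fetuses of the NE groups came from Large White sows on a normal diet, and those of the RE groups from sows of the same breed on a calorie-restricted diet after mating. All sows were of second parity and were mated to 1 boar. Each combination of diet and stage had 1 library, so that the 2 libraries of a stage differed in diet and were used as its replicates. Per the study's methods, 1 fetus near the average weight was taken from each sow for sequencing, with n given as 4. Whether their RNA was pooled in each library, and the sex of the fetuses, are not given in the sources used here. The p-values therefore measure the spread between these libraries, and stage cannot be told apart from the litters and the day of collection that went with it.

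Skeletal muscle of the pig is laid down in waves. Primary myotubes form early from embryonic myoblasts, and secondary fibers then form along them from fetal myoblasts and make up most of the fibers of the adult muscle. As fibers mature, precursor cells leave the cell cycle, embryonic and cardiac forms of the contractile proteins give way to neonatal and adult forms, and the membrane systems that couple excitation to contraction are assembled. Fast fibers draw on glycogen and glycolysis, whereas slow fibers draw more on mitochondria.

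The libraries held 11091317 to 12985505 counts, and the 10 most abundant genes took 11.3% of the counts in NE35 and 21.9% in NE90. The muscle label was checked on 40 sarcomere genes, all of which were tested. Their summed level was 15222 CPM in NE35, 28221 CPM in RE35, 174070 CPM in NE90 and 144220 CPM in RE90, so contractile genes were abundant in every library. The 35 dg libraries also held markers of other tissues. The 34 kidney and mesonephros genes summed to 1379 CPM in NE35 and to between 51.0 and 110 CPM in the other 5 libraries. CDH16, a cadherin of kidney tubules, was at 115 CPM in NE35 and at most 0.154 CPM elsewhere, so it failed the filter, as did 24 of these 34 genes. Epithelium markers summed to 1231 CPM in NE35, 257 CPM in RE35 and 128 to 173 CPM in the other 4 libraries. Cartilage and bone markers were highest in RE35, at 2723 CPM against 1300 CPM in NE35 and 253 and 675 CPM in NE90 and RE90. The part of these tissues in the changes below was not tested, and values without NE35 are therefore given beside them. In whole muscle, fewer cells of a type and less RNA per cell cannot be told apart.

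**Figure D1:**
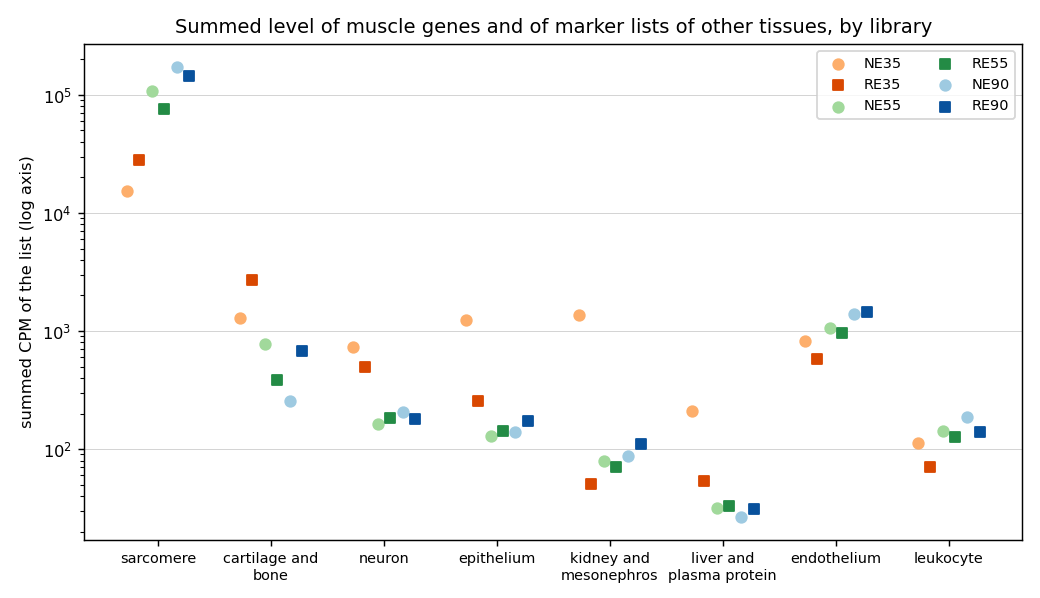
Summed CPM (log axis) of the sarcomere genes and of 7 marker lists of other tissues, with 1 point per library. The sarcomere sum was lowest in NE35, at 15222 CPM, and the kidney sum was highest there, at 1379 CPM against at most 110 CPM in any other library.

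Of the 12805 genes, 494 (3.86%) were higher and 433 (3.38%) were lower at 90 than at 35 dg (adjusted p under 0.05 in the quasi-likelihood test of edgeR). All 927 (7.24%) changed in the same direction in both diets. The test favors such genes, because disagreement between the diets counts as spread in this fit. The smallest change that passed was 1.29 on the log2 scale. The medians were 2.47 for the genes that rose and 2.51 in size for those that fell, and 75 and 85 genes passed 4. These sizes belong to genes selected by the test, so they do not show how large changes were in general. The median of all genes tested was -0.04. The genes that rose had median levels of 9.17 and 11.1 CPM in NE35 and RE35, of 36.5 and 24.7 CPM in NE55 and RE55, and of 49.2 and 52.9 CPM in NE90 and RE90. The medians of the genes that fell were 21.1 and 18.2 CPM at 35 dg, 5.06 and 6.17 CPM at 55 dg, and 2.66 and 3.81 CPM at 90 dg. For both groups of genes the 55 dg medians lay between those of the other stages. Both 90 dg libraries lay above both 35 dg libraries for 3350 genes (26.2%) and below them for 3869 genes (30.2%), whether the test was passed or not. Counts in the lists below should be read against these shares and against the 3.86% and 3.38% called, also where these are not repeated. The filter let in genes that reached 1 CPM only at 35 dg, such as HOXA11, TBX5, SALL1, IBSP, SPINT1, CFAP100 and BRINP1. Their fall was in part fixed by how they entered, and the same holds for rises of genes let in only at 90 dg. With 1 CPM required in all 4 libraries of 35 and 90 dg, 422 of 10994 genes rose and 303 fell. These held 401 of the 494 rises and 277 of the 433 falls.

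The balance of rises and falls depended on the scaling. With TMM scaling 53.3% of the calls were rises. With scaling to the total count 331 genes rose and 1126 fell (22.7% rises), since the median of all genes then moved by -0.48, and with limma on the deposited RPKM, which divide counts by gene length and library total, 334 rose and 917 fell (26.7%). Log2 changes in the text are from the TMM fit, each ± its standard error (SE), and should be read relative to that shift. Without NE35, 178 genes rose and 108 fell, 163 and 97 of them among the calls above. Without RE35 the counts were 304 and 331, without NE90 489 and 246 (66.5% rises), and without RE90 431 and 454. Without NE55 or RE55 the counts were 1057 and 1186, or 1183 and 1179. No call changed direction in any of these fits, which share most of their libraries with the full fit.

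**Figure D2:**
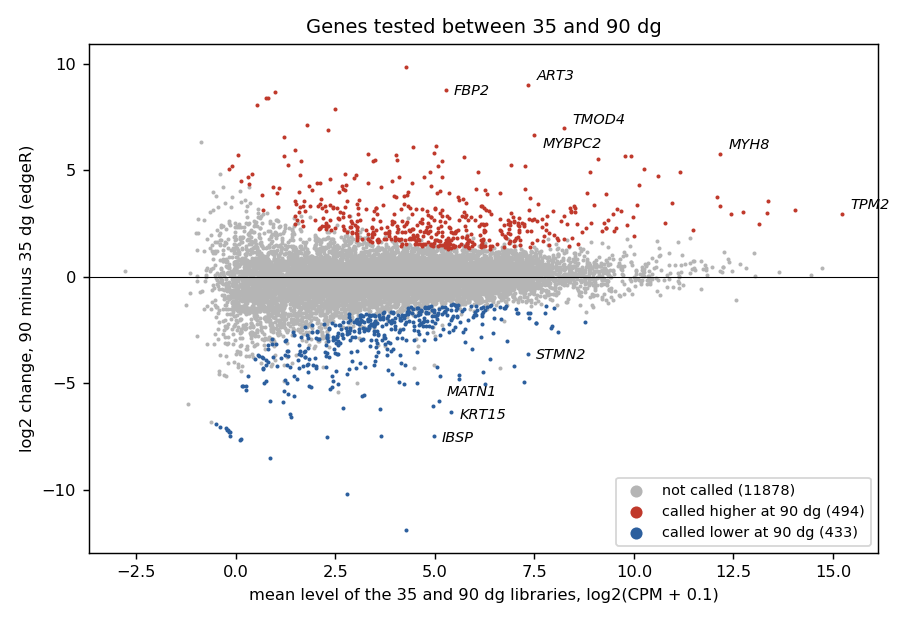
Log2 change from 35 to 90 dg (edgeR) against the mean level of the 4 libraries, log2(CPM + 0.1), with 1 point per gene tested. The 494 genes called higher (red) and the 433 called lower (blue) lie at sizes of at least 1.29, and the 11878 genes not called are grey.

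Genes of the contractile apparatus rose. Of 40 sarcomere genes 27 rose (67.5%, against 3.86% of all genes) and none fell, with a median log2 change of 2.91. Both 90 dg libraries lay above both 35 dg libraries for 33 of them (26.2% of all genes). TMOD4, the skeletal muscle tropomodulin that caps the thin filament, had 3.73 and 5.17 CPM in NE35 and RE35, 254 and 62.2 CPM in NE55 and RE55, and 731 and 482 CPM in NE90 and RE90. The values of 35 and 90 dg were far apart, and it rose by 6.97 ± 0.67 (adjusted p = 0.000286). ACTA1, skeletal muscle alpha-actin, was at 402 and 856 CPM in NE35 and RE35 and 7007 and 9261 CPM in NE90 and RE90 and rose by 3.74 ± 0.60 (adjusted p = 0.00414). The tropomyosins TPM1 and TPM2, which lie along actin, rose by 3.55 ± 0.65 and 2.96 ± 0.75, and TPM2 reached 83291 and 53738 CPM in NE90 and RE90.

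Other sarcomere genes named by size of change rose as well. MYOZ1, a Z-disc protein that binds calcineurin, was at 20.3 and 43.8 CPM in NE35 and RE35, 618 and 447 CPM in NE55 and RE55, and 2454 and 996 CPM in NE90 and RE90. Both diets moved far beyond the distance between the 35 dg libraries, and the change was 5.65 ± 0.67 (adjusted p = 0.00112). CMYA5, a Z-disc anchor protein, and MLIP, which binds lamin, rose by 5.20 ± 0.78 and 5.50 ± 0.79 from 35 dg levels of at most 3 CPM. DES, the muscle intermediate filament protein desmin, was at 1680.2 and 3076 CPM in NE35 and RE35 and 16057 and 20460 CPM in NE90 and RE90 and rose by 2.97 ± 0.62 (adjusted p = 0.0156). The small heat shock proteins HSPB6 and HSPB7, which are rich in striated muscle, rose by 3.38 ± 0.53 and 3.73 ± 0.45. Without NE35, 14 of the 40 sarcomere genes rose, and DES, TPM1 and TPM2 were at 2.66, 3.11 and 2.35 and did not pass.

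Fast fiber genes rose. Of 12 tested, which share TMOD4 and MYOZ1 with the sarcomere list, 11 rose (91.7%, against 3.86% of all genes), with a median of 3.14. All 12 lay above both 35 dg libraries at 90 dg (26.2% of all genes did). MYBPC2, the fast form of myosin-binding protein C, was at 5.52 and 2.77 CPM in NE35 and RE35, 81.7 and 4.09 CPM in NE55 and RE55, and 403 and 312 CPM in NE90 and RE90. RE55 still sat at the level of 35 dg while NE55 had already risen, yet the 2 diets ended close together, with a change of 6.65 ± 0.88 (adjusted p = 0.00172). TNNC2, the calcium sensor of fast fibers, and MYL1, the fast essential light chain, were abundant at 35 dg and rose by 3.13 ± 0.70 and 3.04 ± 0.62. ATP2A1, the calcium pump of fast fibers, rose in the same list, as did CASQ1 below. Without NE35, 6 of the 12 rose, and TNNC2 and MYL1 were at 2.51 and 2.56 and did not pass.

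**Figure D3:**
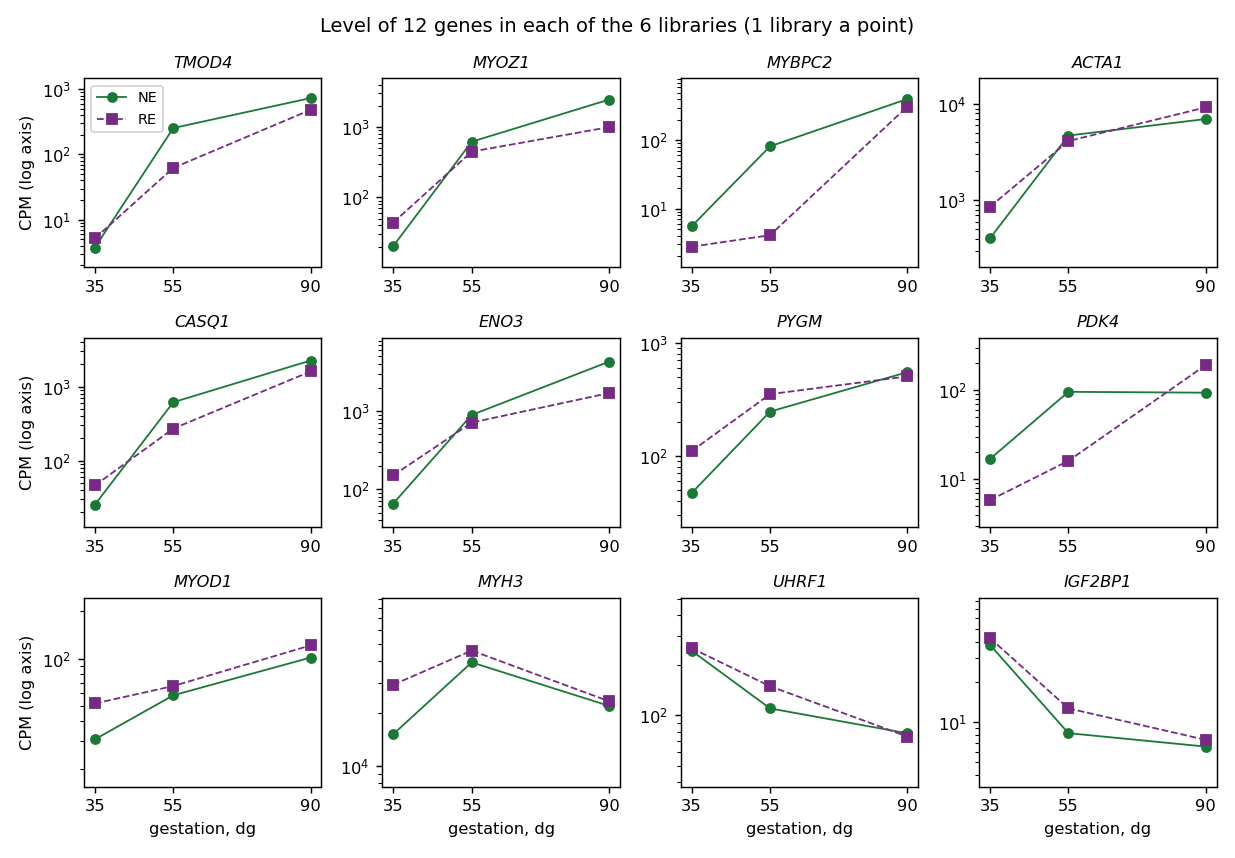
CPM (log axis) of 12 genes at 35, 55 and 90 dg, with 1 library per point (NE circles, RE squares). TMOD4, MYOZ1, CASQ1, ENO3 and PYGM rose in both diets, MYBPC2 and PDK4 lagged in RE55, MYH3 was highest at 55 dg, and UHRF1 and IGF2BP1 fell.

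Myosin heavy chain genes are clustered copies whose reads can be shared, and reads with more than 1 genome location had been discarded, so each is uncertain. The gene named MYH8, the neonatal myosin, for which a second source gives the name MYH1, was at 109 and 219 CPM in NE35 and RE35, 3332 and 555 CPM in NE55 and RE55, and 6110 and 11983 CPM in NE90 and RE90. Both 90 dg libraries were above both 35 dg libraries, and it rose by 5.78 ± 0.93 (adjusted p = 0.00435). MYH6, an alpha-cardiac myosin, was at 677 and 1424 CPM in NE35 and RE35 and 3999 and 5433 CPM in NE90 and RE90 and rose by 2.21 ± 0.55 (adjusted p = 0.0325), but was at 1.83 without NE35 and 2.80 without RE35, and passed in neither. MYH3, the embryonic myosin, which was picked out after its values were seen, was at 15184 and 29137 CPM in NE35 and RE35, 39102 and 45703 CPM in NE55 and RE55, and 22052 and 23444 CPM in NE90 and RE90. It peaked at 55 dg, and its change from 35 to 90 dg was 0.09 ± 0.64 (adjusted p = 0.955). Of the 9 early and cardiac sarcomere isoforms 2 rose and none fell, with a median of 0.10, or -0.38 with total count scaling, -0.24 without NE35 and -0.13 without NE90. Of the 9, 1 was called higher without NE35 or without RE35, and 3 without RE90. Cardiac actin ACTC1 had a change of 0.57 ± 0.52 and the embryonic light chain MYL4 one of -0.66 ± 0.65, neither of which passed. MYL4 differed in sign between the diets, with 0.32 in NE and -2.03 in RE.

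Slow fiber genes did not move as 1 group. Of 7 tested, 2 rose (28.6%, against 3.86% of all genes) and 1 fell (14.3%, against 3.38%), with a median of 0.74. The median was -0.89 without NE90, 0.25 without NE35 and 1.83 without RE90, and in the last fit 5 of the 7 rose. None fell without any 1 of the 4 libraries. CA3, the carbonic anhydrase of slow fibers, was at 12.3 and 37.2 CPM in NE35 and RE35, 1727 and 1409 CPM in NE55 and RE55, and 1159.5 and 978 CPM in NE90 and RE90. It was highest at 55 dg, and rose by 5.52 ± 0.64 (adjusted p = 0.000975) from 35 to 90 dg. SLN, sarcolipin, an inhibitor of the calcium pump, rose by 5.06 ± 0.71. MYH7B, a slow myosin with little protein in most muscles, fell from 281 and 468 CPM to 102 and 174 CPM, a change of -1.45 ± 0.38 (adjusted p = 0.0427). It lost its call without any 1 of the 4 libraries of 35 and 90 dg, at -1.40 without NE35, -1.37 without RE35, -1.41 without NE90 and -1.47 without RE90. The slow and cardiac troponin C, TNNC1, was at 856 and 1447 CPM in NE35 and RE35, 848 and 2134 CPM in NE55 and RE55, and 2837 and 859 CPM in NE90 and RE90. It was higher at 90 dg in NE and lower in RE, with a change of 0.75 ± 0.68 that did not pass.

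The balance of isoforms was followed by the ratio of the form typical of adult muscle to its embryonic or more widely expressed partner. Ratios were taken in RPKM with a pseudocount of 0.1. Of 44 pairs listed, 19 had both members tested. Of these, 18 ratios were higher at 90 dg in both diets and above both 35 dg libraries. That of ATP1B2 over ATP1B1 was of mixed sign. These ratios have no test and no share over all genes to set beside them. They are not separate, because PYGM and PFKM recur among them and most of the muscle forms are also members of the gene lists. The smallest rise was 0.11, for COX7A1 over COX7A2 in NE. Skeletal over cardiac actin, ACTA1 over ACTC1, had log2 ratios of -2.39 and -2.23 in NE35 and RE35, -0.10 and -0.36 in NE55 and RE55, and 0.77 and 0.97 in NE90 and RE90. The partners thus crossed between 35 and 90 dg in both diets. The ratio of the light chains MYL1 over MYL4 went from -1.03 and -0.80 to 2.19 and 3.87, and that of desmin over vimentin, DES over VIM, from -2.47 and -1.83 to 1.47 and 2.42. VIM is the intermediate filament of myoblasts and other mesenchymal cells, and its own change was -1.06 ± 0.57, which did not pass.

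Ratios of enzymes of sugar use were higher at 90 dg as well. Such a ratio can rise through the muscle form alone. The ratio of muscle to general enolase, ENO3 over ENO1, had log2 values of -3.14 and -1.67 in NE35 and RE35, 2.17 and 1.04 in NE55 and RE55, and 3.43 and 3.08 in NE90 and RE90. That of muscle to brain glycogen phosphorylase, PYGM over PYGB, went from 1.63 and 3.54 to 8.21 and 8.30, where PYGM rose by 2.87 ± 0.46 and PYGB fell, with a change of -3.13 ± 0.69. PGAM2 over PGAM1 and PFKM over PFKL, the muscle and general forms of phosphoglycerate mutase and phosphofructokinase, had higher ratios at 90 dg in both diets too. The partners ENO1, PGAM1 and PFKL had changes of -0.83 ± 0.47, -1.09 ± 0.38 and -0.74 ± 0.37, none of which passed. A partner was high in NE35. FBP1, the liver and kidney fructose bisphosphatase, was at 85.4 and 1.05 CPM in NE35 and RE35, 1.03 and 1.31 CPM in NE55 and RE55, and 2.66 and 3.19 CPM in NE90 and RE90. It was far higher in NE35 than in the other libraries. Without NE35 PYGM and PYGB were at 2.41 and -2.34 and did not pass.

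**Figure D4:**
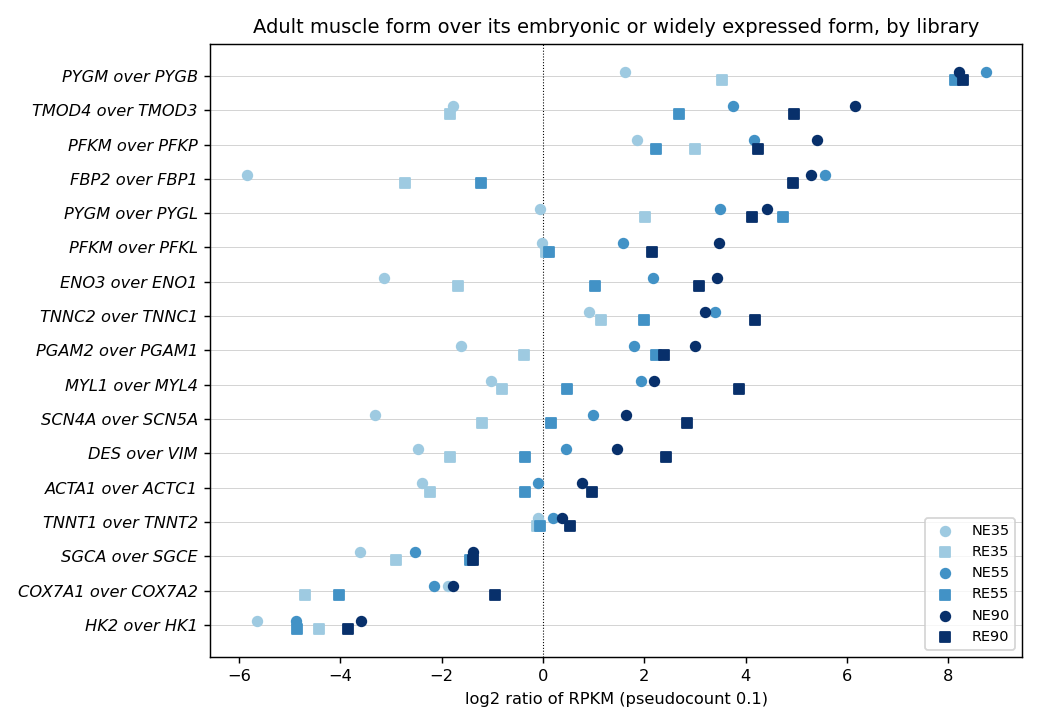
Log2 ratio of RPKM (pseudocount 0.1) of the adult muscle form over its partner in 17 pairs, with 1 point per library (circles NE, squares RE, darker with age). In each pair shown, both 90 dg points lie to the right of both 35 dg points. ACTA1 over ACTC1 was at 0.77 and 0.97 against -2.39 and -2.23. ATP1B2 over ATP1B1, the pair of mixed sign, is not shown, with ratio changes of 1.18 in NE and -1.60 in RE.

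The machinery that links the membrane potential to calcium release rose. Of 27 excitation-contraction coupling genes 19 rose (70.4%, against 3.86% of all genes) and none fell, with a median of 2.53. CASQ1, the calcium store of the sarcoplasmic reticulum, was at 25.4 and 46.3 CPM in NE35 and RE35, 614 and 271 CPM in NE55 and RE55, and 2244 and 1599 CPM in NE90 and RE90. The level rose from each stage to the next in both diets, and the change was 5.68 ± 0.63 (adjusted p = 0.000834). SCN4A, the sodium channel of adult muscle, was at 0.788 and 5.85 CPM in NE35 and RE35 and 31.2 and 80.5 CPM in NE90 and RE90 and rose by 4.27 ± 0.58 (adjusted p = 0.00185). The calcium channel subunit CACNA1S and the triad proteins TRDN and JPH1 were also among the 19. Without NE35 9 of the 27 rose, CASQ1 and SCN4A among them.

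The neuromuscular junction list was split, with 2 of 15 genes higher (13.3%, against 3.86% of all genes) and 2 lower (13.3%, against 3.38%). Its median was -0.24, or 0.08 without RE35 and 0.04 without RE90. Without NE35 1 rose and none fell, and without NE90 2 rose and none fell. ART3, a member of the ADP-ribosyltransferase family, had the largest rise of any gene named here. It was at 0.358 and 0.9 CPM in NE35 and RE35, 129 and 8.41 CPM in NE55 and RE55, and 333 and 318 CPM in NE90 and RE90. RE55 held a small part of the NE55 level while the 90 dg libraries were alike, and the change was 9.02 ± 1.11 (adjusted p = 0.00125). LAMB2, the laminin chain of the synaptic basal lamina, rose by 1.54 ± 0.40, whereas AGRN, the agrin that clusters acetylcholine receptors, fell, with a change of -1.95 ± 0.39, as did the collagen COL13A1, with one of -1.71 ± 0.45. Of 19 dystrophin complex and membrane genes 6 rose (31.6%, against 3.86% of all genes) and none fell, with a median of 0.55. DTNA, alpha-dystrobrevin, rose by 2.85 ± 0.50, CAPN3, the muscle calpain, by 2.69 ± 0.43, SSPN, sarcospan, by 2.66 ± 0.46 and SGCA, alpha-sarcoglycan, by 2.39 ± 0.40. These 4 genes were at 2.16, 2.26, 2.26 and 2.03 without NE35, where none of the 19 passed. LAMB2, AGRN and COL13A1 were at 1.65, -1.53 and -1.04 without NE35 and did not pass either. LAMB2 also lost its call without RE35 (1.54) or RE90 (1.26), and AGRN and COL13A1 without NE90 (-1.58 and -1.17).

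Glycolysis had a median change of 0.45, or -0.06 with total count scaling. Of 22 genes 7 rose (31.8%, against 3.86% of all genes) and none fell. Without NE35 3 rose with a median of 0.76, without NE90 6 rose with a median of 0.17, without RE35 5 rose and 1 fell, and without RE90 7 rose and 2 fell, with a median of 0.77. FBP2, the muscle fructose bisphosphatase, had 0.932 and 0 CPM in NE35 and RE35, 42.5 and 0.309 CPM in NE55 and RE55, and 80.7 and 73.5 CPM in NE90 and RE90. RE55 was far below NE55, and both 90 dg libraries were far above both 35 dg libraries. No reads were found in RE35, and the fitted change was 8.78 ± 1.45 (adjusted p = 0.00489). ENO3, muscle enolase, was at 65.1 and 149.6 CPM in NE35 and RE35, 891 and 710.2 CPM in NE55 and RE55, and 4288 and 1699 CPM in NE90 and RE90 and rose by 4.73 ± 0.68 (adjusted p = 0.00257). PGAM2 and PFKM rose by 2.68 ± 0.53 and 2.09 ± 0.38, and GPD1, which links glycolysis to glycerol synthesis, rose by 2.79 ± 0.42. PGAM2 and PFKM lost their calls without NE35, at 2.22 and 1.80.

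Glycogen genes followed. Of 17 tested 8 rose (47.1%, against 3.86% of all genes) and 1 fell (5.88%, against 3.38%), with a median of 1.23. PPP1R3B, which directs protein phosphatase to glycogen, was at 13 and 20.6 CPM in NE35 and RE35, 135 and 61.4 CPM in NE55 and RE55, and 288 and 296 CPM in NE90 and RE90. Both 90 dg values were close and far above 35 dg, and the change was 4.10 ± 0.50 (adjusted p = 0.00114). PHKG1, the catalytic subunit of muscle phosphorylase kinase, rose by 3.92 ± 0.44 and the muscle glycogen targeting subunit PPP1R3A by 3.47 ± 0.85. PYGB, above, was the member that fell. Without NE35 3 of the 17 rose, PPP1R3B, PHKG1 and PPP1R3A among them.

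Nuclear genes of oxidative phosphorylation were called about as often as all genes. Of 45 tested 2 rose (4.44%, against 3.86%) and none fell, and 18 lay above both 35 dg libraries (26.2% of all genes did). The median was 0.73, or 0.23 with total count scaling, 0.23 without NE90 and 1.19 without RE90, where 9 rose. Their sum was 13016 CPM in NE90, against 6439 CPM in RE90 and 4924 to 6731 CPM in the 35 and 55 dg libraries. The complex I subunit NDUFB6 and cytochrome c, CYCS, rose by 1.70 ± 0.36 and 1.60 ± 0.37. Without NE35 they were at 1.63 and 1.45, without RE35 at 1.91 and 1.87, and CYCS was at 1.55 without NE90, and none of these passed. Of 25 citric acid cycle and pyruvate genes 3 rose, with a median of 0.82, and 1 rose without NE35 or without RE35. PDK4, the kinase that closes pyruvate dehydrogenase and spares glucose, was at 16.9 and 5.85 CPM in NE35 and RE35, 95.7 and 16.1 CPM in NE55 and RE55, and 93.6 and 191 CPM in NE90 and RE90. It was higher in NE35 than in RE35 and lower in NE90 than in RE90, and rose by 4.06 ± 0.73 (adjusted p = 0.00768).

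Genes of fatty acid use rose in part, with 9 of 33 genes higher (27.3%, against 3.86% of all genes), none lower and a median of 1.08. At 90 dg 25 of the 33 lay above both 35 dg libraries (26.2% of all genes did). UCP3, the muscle uncoupling protein, was at 1.08 and 0.15 CPM in NE35 and RE35, 5.16 and 3.86 CPM in NE55 and RE55, and 9.61 and 19.9 CPM in NE90 and RE90. The stages did not overlap, and the change was 4.65 ± 0.79 (adjusted p = 0.00566). PLIN5, a lipid droplet protein of oxidative tissue, rose by 3.83 ± 0.47, PPARA, the nuclear receptor for fatty acids, by 3.22 ± 0.65, and CPT1B, the muscle carnitine transferase, was also among the 9. PPARA was at 5.09 and 2.92 CPM in NE35 and RE35 and 17.8 and 56.6 CPM in NE90 and RE90 and lost its call without RE90, at 1.74. Without RE90 5 of the 33 rose. Of 10 genes of the creatine, myoglobin and purine shuttle list 5 rose and 1 fell, and 3 rose without NE35. AMPD1, muscle AMP deaminase, rose by 3.87 ± 0.43, and SLC25A4, the muscle ADP/ATP carrier, was at 104 and 74.9 CPM in NE35 and RE35 and 1094 and 763 CPM in NE90 and RE90 and rose by 3.37 ± 0.44 (adjusted p = 0.00172). CKB, brain creatine kinase, was the member that fell, from 35.3 and 33.4 CPM to 6.54 and 2.30 CPM, a change of -2.97 ± 0.58 (adjusted p = 0.0113).

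Of 32 cytosolic ribosomal protein genes 1 rose (3.12%, against 3.86% of all genes). It was RPL10L, a near copy of RPL10 whose reads may be shared with it, which rose by 1.46 ± 0.40. RPL10L lost its call without any 1 of the 4 libraries (log2 changes of 1.10, 2.0, 1.50 and 1.43 without NE35, RE35, NE90 and RE90). The median of the list was 0.33, 0.86 in NE and -0.45 in RE, and its sign flipped to -0.20 with total count scaling and to -0.53 without NE90. The list summed to 63627 CPM in NE90, against 27083 to 41327 CPM in the other libraries. The 45 mitochondrial ribosomal protein genes had a median of 0.39, or -0.10 with total count scaling. None of them passed the edgeR test, 7 had an unadjusted p under 0.05, all of them higher, and 3 passed in DESeq2. None of 17 aminoacyl-tRNA synthetases passed in edgeR or DESeq2, and 1 had an unadjusted p under 0.05. Of 27 proteasome genes 1 rose (3.7%, against 3.86% of all genes), and the median was 0.18, or -0.30 with total count scaling and -0.18 without NE90. The gene was PSMB8, a subunit of the immunoproteasome, which went from 2.37 and 0.75 CPM to 9.72 and 13.7 CPM, a change of 3.27 ± 0.74, and lost its call without RE90 (1.81).

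Some genes of cell division fell. Of 29 DNA replication genes 5 fell (17.2%, against 3.38% of all genes) and none rose, with a median of -1.05, and for 23 of them both 90 dg libraries were below both 35 dg libraries (30.2% of all genes). UHRF1, which keeps DNA methylation through replication, was at 244 and 253 CPM in NE35 and RE35, 110.2 and 149.6 CPM in NE55 and RE55, and 78.1 and 74.7 CPM in NE90 and RE90. Both 90 dg libraries lay below all the others, and it fell by 1.70 (adjusted p = 0.0192). MCM2, a subunit of the replicative helicase, was at 98.3 and 118 CPM in NE35 and RE35 and 33.9 and 47.7 CPM in NE90 and RE90 with a change of -1.43 ± 0.36 (adjusted p = 0.0329). Without NE35, RE35 or RE90 none of the 29 passed and without NE90 1 did, and UHRF1 and MCM2 were at -1.59 and -1.19, and at -1.69 and -1.54. UHRF1 also did not pass without RE90 (-1.56), nor MCM2 without NE90 (-1.44) or RE90 (-1.42).

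Of 33 mitosis genes 3 fell (9.09%, against 3.38% of all genes), with a median of -0.88, or -0.50 without RE35. At 90 dg 26 were below both 35 dg libraries (30.2% of all genes were). The median was -0.65 in NE and -1.16 in RE. INCENP, of the chromosomal passenger complex, was at 112 and 112 CPM in NE35 and RE35 and 28.5 and 45.7 CPM in NE90 and RE90 and fell by 1.64 (adjusted p = 0.0217). CENPF, a kinetochore protein, had a change of -1.77 ± 0.48 and PLK1, a mitotic kinase, one of -1.75 ± 0.48. Without NE35 INCENP and PLK1 were at -1.27 and -1.33, and without RE35 all 3 failed, at -1.88, -1.03 and -1.99. Without NE90 the 3 genes were at -1.44, -1.43 and -1.84 and PLK1 was at -1.65 without RE90, again short of the threshold. The summed level of the list was 3801 CPM in NE90 and 1797 CPM in RE90, against 3857 and 4551 CPM in NE35 and RE35. STMN1, a regulator of microtubules, was the most abundant member at 2112 and 2581 CPM in NE35 and RE35, 1367 and 3058 CPM in NE55 and RE55, and 2656 and 794 CPM in NE90 and RE90. It was highest in RE55 and lowest in RE90, and did not pass.

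Among fetal RNA-binding proteins and known targets of the let-7 microRNA, 2 of 11 fell (18.2%, against 3.38% of all genes). Their median was -0.76, or -0.60 without NE35 and -1.50 without RE90. IGF2BP1, which binds fetal growth mRNAs, was at 37.8 and 42.5 CPM in NE35 and RE35, 8.25 and 12.7 CPM in NE55 and RE55, and 6.54 and 7.35 CPM in NE90 and RE90. The values were alike in both diets at every stage, and it fell by 2.53 (adjusted p = 0.00445), a call that held without each of the 4 libraries. Of 27 genes of the IGF axis and hormone response 5 rose (18.5%, against 3.86% of all genes) and 3 fell (11.1%, against 3.38%). Their median was 0.61, or 1.0 without NE90 and 0.35 without RE90. Without NE35 3 rose and none fell, and without each of the other 3 libraries 4 rose and 1 fell. EGF, epidermal growth factor, was at 5.95 and 0 CPM in NE35 and RE35, 11.9 and 1.47 CPM in NE55 and RE55, and 26.9 and 27.8 CPM in NE90 and RE90. The 90 dg libraries were alike, whereas RE35 held no reads, and the fitted change was 4.50 ± 1.08 (adjusted p = 0.0284). EGF lost its call in DESeq2, in limma voom, without the diet term and with a robust estimate of the spread. Its change was 10.8 without NE35 and 2.57 without RE90. KLF9, a transcription factor induced by thyroid and glucocorticoid hormones, rose by 3.80 ± 0.67. TRIM63, a ubiquitin ligase of muscle breakdown, was at 45.1 and 79.9 CPM in NE35 and RE35 and 647 and 574 CPM in NE90 and RE90 and rose by 3.23 ± 0.58, or 2.53 without NE35, where it did not pass. None of 11 imprinted growth genes passed in edgeR or DESeq2 and none had an unadjusted p under 0.05, with a median of 0.01, or -0.47 with total count scaling.

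Of 41 myogenic regulators tested 3 rose (7.32%, against 3.86% of all genes) and 2 fell (4.88%, against 3.38%), with a median of 0.13, or -0.32 with total count scaling. Without NE35 or NE90 none rose and 1 fell, with medians of -0.04 and -0.05, and without RE35 or RE90 1 rose and 1 fell. MYF6, a myogenic factor of differentiated fibers, was at 18.6 and 40.7 CPM in NE35 and RE35, 73.5 and 77.6 CPM in NE55 and RE55, and 134 and 87.5 CPM in NE90 and RE90. Both diets rose, NE from the lower level, by 1.95 ± 0.45 (adjusted p = 0.0241) in the joint fit. MYOD1, the factor that commits cells to the muscle lineage, was at 30.7 and 51.8 CPM in NE35 and RE35, 58.4 and 66.9 CPM in NE55 and RE55, and 101 and 121 CPM in NE90 and RE90 and rose by 1.46 ± 0.36 (adjusted p = 0.0313). Neither held without NE35, at 1.33 and 1.25, or without NE90, at 1.36 and 1.37, and MYOD1 was at 1.82 without RE35 and 1.57 without RE90. TWIST2, which restrains differentiation, was at 51.5 and 26.6 CPM in NE35 and RE35 and 7.26 and 3.1 CPM in NE90 and RE90 and fell by 2.96 (adjusted p = 0.00247), and did so without each of the 4 libraries. MEF2C, a partner of the myogenic factors, was at 83.2 and 159 CPM in NE35 and RE35 and 319 and 363 CPM in NE90 and RE90, a change of 1.51 ± 0.45 (adjusted p = 0.0658) that did not pass.

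The study itself singled out 30 of the genes tested from these samples, so their counts are not independent evidence. Of these 8 rose and 2 fell, with a median of 0.38, or -0.10 with total count scaling, and without NE35 4 rose and none fell. The 8 are EGF, TPM1, TPM2, UCP3, PDK4, MYF6, MYOD1 and ENO3. BMP7, a growth factor, had a change of -1.96 ± 0.51 and SPP1, osteopontin, one of -1.71 ± 0.42. Both failed without NE35, at -1.16 and -1.06, and without NE90, at -1.45 and -1.42. HK1, the general hexokinase, was at 502 and 363 CPM in NE35 and RE35 and 199.7 and 180.3 CPM in NE90 and RE90, a change of -1.19 ± 0.40. PPARG, the regulator of fat cell formation, was at 13.6 and 5.4 CPM in NE35 and RE35 and 25.8 and 20.7 CPM in NE90 and RE90, a change of 1.46 ± 0.45. Neither passed.

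Some genes that pattern the embryo fell. Of 41 HOX and patterning genes tested 9 fell (22.0%, against 3.38% of all genes) and none rose, with a median of -1.19. At 90 dg 28 were below both 35 dg libraries (30.2% of all genes were). HOXA11, TBX5 and SALL1 passed the filter only through the 35 dg libraries. HOXA10, a posterior HOX gene, was at 7.74 and 11.4 CPM in NE35 and RE35, 0.938 and 2.47 CPM in NE55 and RE55, and 0 and 0.0886 CPM in NE90 and RE90. It was nearly lost by 90 dg in both diets, with a fitted change of -7.50 ± 0.94 (adjusted p = 0.00137). With 260 reads at 35 dg and 1 read at 90 dg, the ratio of the pooled levels was 201, with an exact 95% counting interval of 35.7 to 7958. HOXA11, another posterior HOX gene, was at 10.5 and 9.97 CPM in NE35 and RE35 and 0 and 0.975 CPM in NE90 and RE90, a change of -4.87 ± 1.05 (adjusted p = 0.0183). SALL1, a zinc finger factor of limb and kidney, was at 27.3 and 9.15 CPM in NE35 and RE35 and 0.205 and 0.443 CPM in NE90 and RE90, a change of -5.54 ± 0.73 (adjusted p = 0.00172). TBX5, which specifies the forelimb, was at 3.94 and 5.47 CPM at 35 dg and at 0 and 0.177 CPM at 90 dg, a ratio of 49.4 (exact 95% counting interval 13.4 to 412) over 128 and 2 reads. HOXA10, HOXA11 and HOXA5 are genes of 1 cluster, and HOXA5, picked out after its values were seen, was at 45.7 and 42.4 CPM in NE35 and RE35 and 16 and 38.9 CPM in NE90 and RE90, a change of -0.75 ± 0.44 that did not pass. Without NE35 3 of the 41 fell, HOXA10 and SALL1 among them, and HOXA11 was at -3.33 and did not pass. TBX5 did not pass without RE35, at -4.59.

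Cartilage and bone markers fell. Of 19 tested 10 fell (52.6%, against 3.38% of all genes) and none rose, with a median of -1.73, or -3.02 without RE90. IBSP, bone sialoprotein, was at 15.1 and 109.5 CPM in NE35 and RE35, 0.0938 and 0 CPM in NE55 and RE55, and 0.102 and 0.532 CPM in NE90 and RE90. MATN1, a cartilage matrilin, was at 14.5 and 119 CPM in NE35 and RE35, 0.281 and 0.617 CPM in NE55 and RE55, and 0 and 2.75 CPM in NE90 and RE90. COL9A2, a chain of cartilage collagen IX, was at 131 and 447 CPM in NE35 and RE35 and 1.74 and 21.5 CPM in NE90 and RE90. All 3 were several times higher in RE35 than in NE35, and MATN1 and COL9A2 were higher in RE90 than in NE90. Their changes were -7.46 ± 0.71 (adjusted p = 0.000286), -5.80 ± 0.69 (adjusted p = 0.00112) and -4.92 ± 0.76 (adjusted p = 0.00333), and 9 of the 19 fell without NE35 and 8 without RE35.

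Of 17 neuron markers 5 fell (29.4%, against 3.38% of all genes) and 1 rose (5.88%, against 3.86%). Their median was -0.75, or -0.27 without NE90 and -1.39 without RE90. Without NE35 3 fell and none rose. STMN2, a growth cone protein, was at 352 and 241 CPM in NE35 and RE35, 23 and 20 CPM in NE55 and RE55, and 8.08 and 47.8 CPM in NE90 and RE90. The 35 dg libraries were alike and the 55 and 90 dg libraries much lower, a change of -3.64 ± 0.68 (adjusted p = 0.00958). UCHL1, a neuronal deubiquitinase, and NEFL, the light neurofilament, had changes of -3.66 ± 0.51 and -2.51 ± 0.47, and all 3 held without each of the 4 libraries. CHGA, chromogranin A, was at 162 and 26.4 CPM in NE35 and RE35 and 0.92 and 6.47 CPM in NE90 and RE90, a change of -4.81 ± 1.04, or -2.33 without NE35, where it did not pass. The Schwann cell list had 1 of 8 genes lower, NGFR, at -2.17 ± 0.51, which lost its call without NE35 (-2.29), RE35 (-1.93) or RE90 (-1.56).

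Epithelium markers gave 8 of 18 lower (44.4%, against 3.38% of all genes) and 1 higher (5.56%, against 3.86%). Their median was -3.15, or -1.63 without NE35 and -5.18 without RE35. KRT15, a basal keratin, was at 106 and 62 CPM in NE35 and RE35, 1.13 and 2.32 CPM in NE55 and RE55, and 1.33 and 0.709 CPM in NE90 and RE90. Both 35 dg libraries were far above all the others, and its change of -6.36 ± 0.58 (adjusted p = 0.000286) held without each of the 4 libraries. KRT8, a keratin of simple epithelia, was at 286 and 14.8 CPM in NE35 and RE35 and 1.84 and 3.28 CPM in NE90 and RE90 and SPINT1, an epithelial protease inhibitor, at 47.1 and 2.25 CPM in NE35 and RE35 and 0.205 and 0 CPM in NE90 and RE90. Their changes of -5.01 ± 1.04 and -7.44 ± 1.05 became -2.39 and -5.17 without NE35 and did not pass. SPINT1 had 687 reads at 35 dg and 2 at 90 dg, a ratio of 265 (exact 95% counting interval 73.1 to 2194). CRB3, an epithelial polarity gene, was at 48.4 and 0.3 CPM in NE35 and RE35 and 0.409 and 0 CPM in NE90 and RE90. Its change of -6.21 ± 1.67 (adjusted p = 0.0454) rested on NE35, and was -0.67 without it. Of the 10 kidney genes tested 2 fell, the endocytic receptor CUBN and the transcription factor GATA3, at -3.53 ± 0.81 and -3.73 ± 0.98, and none passed without NE35, whereas 7 fell without RE35. Without NE35 CUBN and GATA3 were at -1.51 and -1.12. GATA3 also failed without NE90, at -2.49. Of 8 liver and plasma protein markers 1 fell, CPS1, the first enzyme of the urea cycle, at 20.6 and 29.7 CPM in NE35 and RE35, 4.31 and 7.56 CPM in NE55 and RE55, and 1.74 and 3.28 CPM in NE90 and RE90. Both 35 dg libraries were above all the others, and the change of -3.36 ± 0.47 (adjusted p = 0.00206) held without each of the 4 libraries. Neither of 2 gonad and adrenal steroid markers passed in edgeR or DESeq2, and none had an unadjusted p under 0.05.

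Of 47 collagen and matrix genes 1 rose (2.13%) and 4 fell (8.51%, against 3.38% of all genes), with a median of -0.15, or 0.12 without NE90 and -0.61 without RE90. None fell without NE35, 1 without RE35, and 2 without NE90 or RE90. FBLN1, fibulin, was at 317 and 295 CPM in NE35 and RE35 and 55.8 and 82.7 CPM in NE90 and RE90 and fell by 2.16 (adjusted p = 0.00768), and EMILIN1, an elastic fiber protein, had a change of -1.71 ± 0.39. COL15A1, a basement membrane collagen, was at 16.6 and 15.8 CPM in NE35 and RE35 and 50 and 101 CPM in NE90 and RE90 and rose by 2.16 ± 0.41 (adjusted p = 0.00985). Without NE35 FBLN1 and EMILIN1 were at -1.96 and -1.39 and did not pass, without RE35 EMILIN1 and COL15A1 were at -1.87 and 1.95, and without RE90 they were at -1.56 and 1.60. Of 14 fibroblast and progenitor markers 2 rose (14.3%, against 3.86% of all genes) and 1 fell (7.14%, against 3.38%). Their median was 0.23, or -0.24 with total count scaling, -0.20 without NE35 and -0.28 without RE90. CLEC3B, tetranectin, was at 18.6 and 10.3 CPM in NE35 and RE35 and 183 and 89.6 CPM in NE90 and RE90 and rose by 3.21 ± 0.44 (adjusted p = 0.00203). PI16, a marker of a fibroblast subset, rose by 3.99 ± 0.73, and OSR2, a factor of embryonic connective tissue, fell, with a change of -2.07 ± 0.41. CLEC3B and PI16 held without each of the 4 libraries, and OSR2 was at -2.16 without NE35 and -1.85 without RE35, where it did not pass.

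Of 16 endothelium markers 2 rose (12.5%, against 3.86% of all genes), with a median of 0.91. None passed without NE35 or RE35, and 1 without NE90 or RE90. PECAM1, an endothelial adhesion protein, was at 168 and 109.6 CPM in NE35 and RE35, 288 and 229.8 CPM in NE55 and RE55, and 485 and 442 CPM in NE90 and RE90. It rose in both diets, by 1.77 ± 0.39 (adjusted p = 0.0206), but failed without NE35 (2.0) or RE35 (1.66). Of 14 smooth muscle and pericyte markers 5 rose (35.7%), or none without NE35 and 3 without RE35, of which DES and SYNPO2 are also sarcomere genes, and KCNJ8, a potassium channel of pericytes, rose by 2.37 ± 0.39, or 2.28 without NE35, short of the threshold. Of 9 adipocyte markers 3 rose (33.3%), with a median of 1.46, or 2.39 without NE35 and 0.85 without RE90. Of these, GPD1 and PLIN4, were also members of the muscle metabolism lists, and CFD, an adipocyte serine protease, lost its call without RE35 (2.04). Of 15 leukocyte markers 1 rose, SLA-DQB1, a class II histocompatibility gene with near copies that may share its reads, by 2.55 ± 0.55, or 1.96 without RE35, where it did not pass. Among 11 erythroid markers the embryonic globin HBZ was at 2.72 and 8.17 CPM in NE35 and RE35 and 0.511 and 0.266 CPM in NE90 and RE90, a change of -3.62 ± 0.87 (adjusted p = 0.0284) that failed without RE35 (-2.63) and RE90 (-2.52). ANK1 and SPTB, membrane skeleton genes that muscle also expresses, rose by 3.21 ± 0.53 and 2.50 ± 0.42, or 2.52 and 2.46 without NE35, where they did not pass.

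Immediate early genes, the first to be transcribed after a stimulus, rose in part. Of 19 immediate early genes 3 rose (15.8%, against 3.86% of all genes). The median of the list was 1.22, with 0.14 in NE and 1.74 in RE. Without NE90 7 rose, without RE35 2 rose with a median of 0.45, and without RE90 the median was 0.20. NR4A3, an orphan nuclear receptor, was at 0.788 and 0.15 CPM in NE35 and RE35, 8.07 and 0.617 CPM in NE55 and RE55, and 5.42 and 33 CPM in NE90 and RE90. RE90 stood above all the others, and the change of 5.75 ± 1.32 (adjusted p = 0.0239) was 2.51 without RE90 and did not pass. GADD45B, a growth arrest gene, was at 38.3 and 52.9 CPM in NE35 and RE35 and 339 and 285 CPM in NE90 and RE90 and rose by 2.71 ± 0.51, or 2.14 without NE35, also short of the threshold. Of 24 heat shock and chaperone genes 4 rose (16.7%, against 3.86% of all genes), and 2 rose without NE35. The median was 0.22, or -0.24 with total count scaling. The 4 were the small heat shock proteins HSPB6, HSPB7 and HSPB8 and the cochaperone DNAJB5. HSPB8 and DNAJB5 rose by 2.66 ± 0.45 and 1.86 ± 0.39, or 2.26 and 1.54 without NE35, where neither passed, and DNAJB5 was at 1.47 without NE90, where it did not pass.

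**Figure D5:**
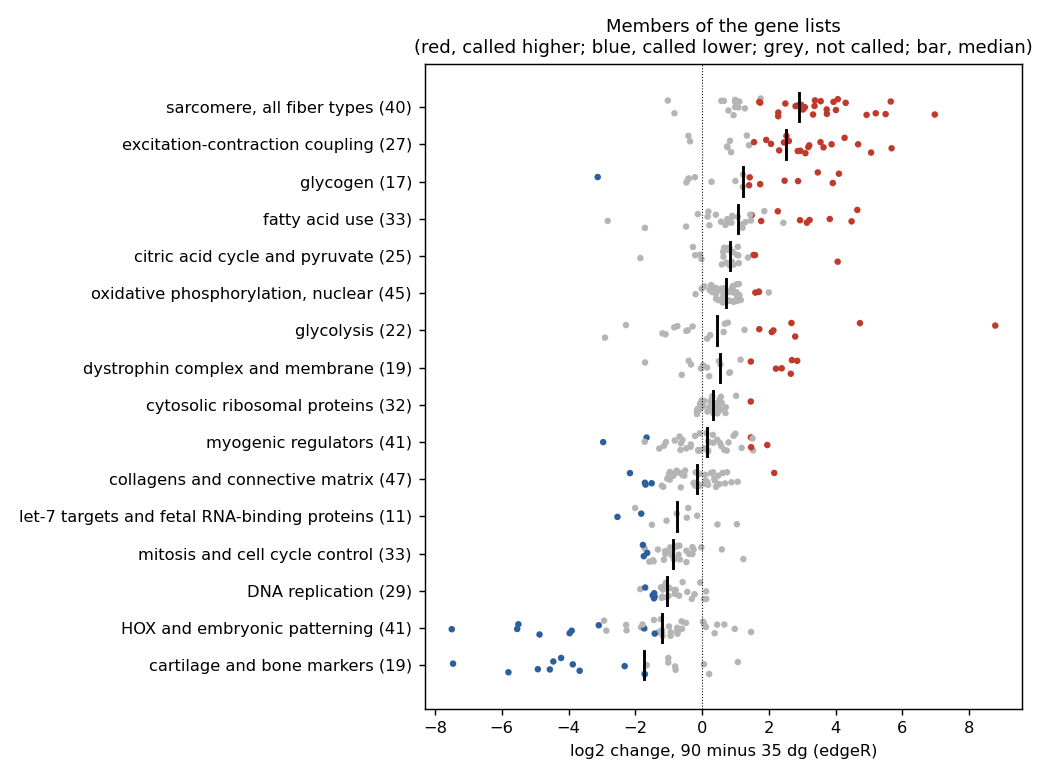
Log2 change from 35 to 90 dg (edgeR) of the members of 16 gene lists, with 1 point per gene tested and a bar at the median. Sarcomere genes (median 2.91, 27 of 40 called higher) lie to the right, and cartilage and bone markers (median -1.73, 10 of 19 called lower) to the left.

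Some of the largest rises lay outside these lists. MYL10, a regulatory light chain gene, was at 0 and 0.075 CPM in NE35 and RE35, 4.41 and 1.93 CPM in NE55 and RE55, and 11.8 and 10.19 CPM in NE90 and RE90. SLC6A13, a transporter of GABA and taurine, was at 1.36 and 0.6 CPM in NE35 and RE35, 17.6 and 6.48 CPM in NE55 and RE55, and 50.3 and 77.9 CPM in NE90 and RE90. HMCN2, hemicentin, was at 0.573 and 0.6 CPM in NE35 and RE35 and 25.4 and 61 CPM in NE90 and RE90 and MYOC, myocilin, at 0.502 and 0.675 CPM in NE35 and RE35 and 32.8 and 31.2 CPM in NE90 and RE90. All 4 were close to 0 at 35 dg, intermediate at 55 dg and alike in order of magnitude in the 90 dg libraries. Their changes were 7.87 ± 0.95 (adjusted p = 0.00112), 6.15 ± 0.63 (adjusted p = 0.000509), 6.08 ± 0.56 (adjusted p = 0.000286) and 5.74 ± 0.54 (adjusted p = 0.000286), and each held without each of the 4 libraries. The MYL10 value rests on 1 read at 35 dg against 230 at 90 dg, a ratio of 298 (exact 95% counting interval 52.9 to 11819). Such intervals cover counting error only. Among the largest falls, TMEM132C, a membrane protein of little known role, was at 51.1 and 20.8 CPM in NE35 and RE35 and 0.307 and 1.86 CPM in NE90 and RE90 and CFAP100, a cilia gene, at 13.3 and 6.37 CPM in NE35 and RE35 and 0 and 0.443 CPM in NE90 and RE90. Their changes were -5.03 ± 0.76 (adjusted p = 0.00305) and -5.28 ± 0.96 (adjusted p = 0.00791), and BRINP1, a gene of neurons, had one of -5.58 ± 0.98 (adjusted p = 0.00647). In all 698 of the 927 genes called had a symbol, and the other 229 are not named here.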

How the data were processed

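Per the study's methods and the submitters' processing notes, polyadenylated RNA of longissimus muscle (Trizol extraction, Illumina TruSeq libraries) was sequenced, reads were trimmed with the FASTX-Toolkit and aligned to Sscrofa10.2 with TopHat2, and reads with more than 1 location were discarded. The deposited read counts per Ensembl gene are whole numbers that the authors did not normalize. The RPKM values, which the authors computed as counts divided by gene length and by mapped reads, were used for isoform ratios and for 1 alternative fit. Strandedness is not given in the sources used here, so overlapping antisense genes cannot be told apart. Columns marked SE were read as the RE groups of the labels. Small RNA tables were not used here, and a few genes of the lists are not reported here.

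Counts were scaled by trimmed mean of M-values (TMM, factors 0.764 in NE90 to 1.26 in NE35). They were tested with edgeR 4.0.16 in R 4.3.3 (quasi-likelihood, diet plus stage, all 6 libraries, 2 residual degrees of freedom for each gene before moderation). A prior count of 2 went only into the log2 changes within each diet, not into the fitted changes. Genes were called at a Benjamini-Hochberg adjusted p under 0.05 over 12805 genes. SEs were taken as the log2 change divided by the square root of the F statistic. Totals of 11091317 to 12985505 counts limit genes near the 1 CPM filter to about 10 to 14 reads. The members and lists were chosen with earlier results of these data known. Named were the 10 largest rises and the 10 largest falls among called genes with a symbol and a mean of at least 5 CPM, up to 4 called genes a list by size of change (the 2 most abundant where none was called), both members of isoform pairs and the genes singled out by the study, of which the text gives those with the most bearing. MYH3, HOXA5 and genes named without values were picked out after their values were seen. Symbols were found for 11349 of 19158 identifiers, 11009 in the reference table and 340 in the supplementary tables. The 2 sources gave different symbols for 91, and 25 second identifiers of a symbol stayed unnamed. Alternatives were other scalings, filters, covariates and samples, DESeq2 1.42.0, limma 3.58.1 (voom, and RPKM with a pseudocount of 1) and each library left out in turn. The fits were also run on simulated data, and the outcome is not reported here. Python 3.11.15 with numpy 2.4.6, pandas 2.3.3 and matplotlib 3.10.9 made summaries and plots.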

Additional observations from a re-analysis of the deposited data

Results flagged for a closer look

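The 90 against 35 dg change had opposite directions in the NE and RE diets for 17 values named above: 12 list medians, and 5 single genes. MYH3 is itself the median member of the early and cardiac isoform list in both diets. Its difference therefore appears both as a list median and as a single gene. None of these differences was tested, because each diet had 1 library a stage and a fit with a diet by stage term leaves no residual degrees of freedom. The differences below are log2 change in NE minus log2 change in RE.

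Contractile and growth genes differed as follows. The median of the slow fiber genes was higher in NE by 2.27, that of the early and cardiac sarcomere isoforms by 0.85, that of the myogenic regulators by 0.30 and that of the neuromuscular junction genes by 0.36. Among the single genes the difference was 2.48 for TNNC1, slow troponin C, 2.35 for MYL4, the embryonic light chain, 0.85 for MYH3, the embryonic myosin, and 2.03 for STMN1, the microtubule regulator. The medians of the cytosolic ribosomal proteins, the proteasome and the aminoacyl-tRNA synthetases differed by 1.31, 0.70 and 0.068, and that of the imprinted growth genes by -0.29.

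For markers of other tissues the difference was -6.08 for the median of the kidney and mesonephros markers, -3.33 for the gonad and adrenal steroid markers, -1.76 for the liver and plasma protein markers, 0.33 for the Schwann cell markers and -6.38 for FBP1, the fructose bisphosphatase of liver and kidney. The kidney markers summed to 1379 CPM in NE35 against 51.0 CPM in RE35, and FBP1 was at 85.4 CPM in NE35 against 1.05 CPM in RE35. The steroid list had 2 genes. STAR changed by -3.27 in NE and 2.53 in RE, and INHA by -1.41 in NE and -0.56 in RE.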

How the results depend on the processing

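The counts of genes called depended on the fit. Against 494 higher and 433 lower, leaving out 1 library at a time gave 178 to 1183 higher and 108 to 1186 lower, with the lowest counts without NE35. Of the genes called in the full fit, 33.0% of the rises and 22.4% of the falls were called without NE35. DESeq2 called 751 genes higher, and the fit on the 35 and 90 dg libraries alone called 1188 higher and 1133 lower. Falls numbered 1126 with total count scaling, 917 with limma on RPKM and 795 with no filter on low counts. Rises were 22.7% of the calls with total count scaling, 26.7% on RPKM and 66.5% without NE90, against 53.3%. The cause of these differences was not tested. No gene called in the full fit was called in the other direction under any of the 17 alternatives. These reuse all or most of the same libraries. Outside the last section, on other observations, 106 called genes were named with a change. Of these 45 were called under all the alternatives that gave them a value, and 61 lost the call under at least 1. Signs turned for genes that did not pass. MYH3 was at -0.38 with total count scaling, -0.32 on RPKM, and -0.24 to 0.58 with 1 library left out, the lowest without NE35 and the next, -0.13, without NE90. With 1 library left out TNNC1 ranged from -0.89 (without NE90) to 1.86, MYL4 from -2.10 to 0.38 (without RE90), STMN1 from -1.93 to 0.53 (without RE90) and FBP1 from -4.94 to 1.65 (without NE35). Without NE35 the median of the kidney markers was 1.37, and without RE35 that of the neuromuscular junction genes was 0.08. The steroid markers gave no value where 1 CPM was required in all 4 libraries. Without the diet term 622 genes rose and 615 fell. With about 10 to 14 reads at 1 CPM, changes of rare genes are limited by depth.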

Other observations

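The following genes and families were looked up after the values were seen, so their counts describe them and carry no test. Of 23 genes of sterol and fatty acid synthesis 8 fell (3.38% of all genes fell) and none rose, with a median of -1.03. The change was negative for 22 of the 23, and 1 fell without NE35. Members that did not pass included HMGCS1 (-0.48), FDFT1 (-0.29) and HSD17B7 (0.51). LSS, lanosterol synthase, was at 56.2 and 68.6 CPM in NE35 and RE35, 24.8 and 37.9 CPM in NE55 and RE55, and 8.90 and 14.3 CPM in NE90 and RE90, a change of -2.47 ± 0.38 (adjusted p = 0.00326). The level of LSS fell from each stage to the next in both diets. SQLE, squalene epoxidase, FASN, fatty acid synthase, and ACLY, which supplies acetyl-CoA to both pathways, had changes of -1.59 ± 0.38, -1.61 ± 0.40 and -1.59 ± 0.39. LSS passed without each of the 4 libraries. SQLE, FASN and ACLY did not pass without NE35 (-1.48, -1.58 and -1.55), RE35 (-1.57, -1.51 and -1.50) or RE90 (-1.28, -1.28 and -1.53), nor ACLY without NE90 (-1.63).

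Axon guidance genes were lower as well, with 14 of 48 called lower (3.38% of all genes), 1 higher and a median of -0.72. SLIT3, a secreted guidance factor, was at 224 and 176 CPM in NE35 and RE35, 31.4 and 35.3 CPM in NE55 and RE55, and 19 and 31.9 CPM in NE90 and RE90, a change of -3.01 ± 0.41 (adjusted p = 0.00197). Most of its fall lay before 55 dg in both diets. UNC5D, a netrin receptor, EPHB6, an ephrin receptor, and SEMA3F, a semaphorin, had changes of -6.44 ± 1.09, -5.13 ± 0.96 and -2.01 ± 0.39, and 4 of the 48 fell without NE35. SEMA3F did not pass without NE35 (-1.76) or NE90 (-1.64).

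All 3 genes of the Popeye domain family tested, whose products bind cyclic AMP in striated muscle, rose, with POPDC2 going from 1.94 and 1.35 CPM at 35 dg to 81.0 and 60.3 CPM at 90 dg, a change of 5.43 ± 0.45 (adjusted p = 0.000286). Of 12 members of the ASB family, substrate receptors of ubiquitin ligases, 5 rose (3.86% of all genes rose), with a median of 0.66, or 0.18 with total count scaling. ASB5 was at 3.80 and 4.72 CPM at 35 dg and 146 and 117 CPM at 90 dg, a change of 4.91 ± 0.44, and ASB2 rose by 3.18 ± 0.44. Without NE35 1 of the 3 Popeye genes and 4 of the 12 ASB genes rose.

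Of 14 genes of the circadian clock 3 rose (3.86% of all genes rose) and none fell, with a median of 1.07, and 2 rose without NE35. NR1D2, a nuclear receptor that represses clock genes, was at 7.31 and 7.80 CPM in NE35 and RE35, 66.0 and 14.5 CPM in NE55 and RE55, and 69.0 and 112 CPM in NE90 and RE90, a change of 3.62 ± 0.62 (adjusted p = 0.00566). BHLHE40 and BHLHE41, repressors in the same loop, rose by 3.30 ± 0.49 and 2.62 ± 0.69, and BHLHE41 did not pass without NE35 (1.86) or RE90 (2.05). The hour of collection is not given in the sources used here. Of 6 histocompatibility genes 4 rose (3.86% of all genes rose). Among them HLA-DRA, a class II chain, went from 4.87 and 1.57 CPM to 46.6 and 21.0 CPM, a change of 3.42 ± 0.50. Near copies of these genes may share reads.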
